A study of Mus musculus with 10 samples.

Results

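The interleukin 1 (IL-1) family and its receptors were examined in mouse colon through 10 genes chosen by symbol, namely the ligands *Il1a*, *Il1b*, *Il18* and *Il33*, the receptor antagonist *Il1rn*, the receptors *Il1r1*, *Il1r2*, *Il1rl1* and *Il18r1*, and the shared receptor chain *Il1rap*. Each of these symbols matched 1 row, giving 10 of the 56691 genes in the deposited table, and all 10 were among the 16545 genes with enough counts to be tested. The colon RNA of 10 male C57BL/6 mice aged 8 weeks had been sequenced after poly(A) selection. The 5 mice of the DSS group had drunk 3% dextran sulfate sodium (DSS), a polymer that injures the colonic epithelium, for 7 days. The 5 mice of the ceAF group had drunk the same DSS and were then given chick early amniotic fluid (ceAF), taken from young chick embryos, by gavage at 15 mL/kg for 10 days. No unexposed colon was analysed here, so each value compares ceAF after DSS with DSS alone. Mice carry the group name and a number, as in DSS-1 or ceAF-5.

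IL-1α and IL-1β signal through IL-1 receptor type 1 together with its accessory protein, and the signal passes through MyD88 and IRAK kinases to NF-κB and MAP kinases. The receptor antagonist occupies the same receptor without signaling, and IL-1 receptor type 2 is a decoy that binds the ligand but lacks a signaling domain. IL-18 and IL-33 are related cytokines with receptors of the same family; in the gut, IL-1β is made largely by myeloid cells, IL-18 by the epithelium, and IL-33 by stromal and barrier cells as an alarmin.

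The total count on genes ran from 14676471 in ceAF-1 to 19901549 in DSS-2. Two-sided comparisons of the groups were made with edgeR's quasi-likelihood test and Benjamini-Hochberg adjustment over all genes tested, and levels per mouse are TMM-scaled CPM, the count as a share of the scaled library size. An unadjusted p-value is called nominal. The p-values measure the spread between these libraries, and that each library is a separate mouse rests on the labels and the study's methods. Of the 10 members, 0 passed an adjusted p-value under 0.05, as did 0% of all genes tested. At a nominal p below 0.05, edgeR gave 5 of the 10 members, *Il1a*, *Il1b*, *Il1r2*, *Il18r1* and *Il33*, all with a lower mean in the ceAF group, against 3.67% of all genes on that side. DESeq2 gave 3 members at a nominal p below 0.05, of the 8 to which it assigned a p-value, against 4.84% of its genes in either direction. At an adjusted p under 0.05 it gave 0 members, against 0.0956% of its genes. *Il1b* and *Il1r2* had no p-value in DESeq2 because of 1 extreme count in each. The ceAF mice all lay below the lowest DSS mouse in 0 of the 10 members and in 0.465% of all genes tested.

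A pair of libraries stood at the ends of most members. DSS-1 was the highest of the 10 mice in 8 of the 10 members and in 16.0% of all genes tested, and ceAF-1 was the lowest in 8 of the 10 members and in 21% of all genes tested. Without DSS-1, 0 of the 10 members had a nominal p below 0.05 in edgeR, against 4.26% of all genes tested in either direction. The fold change was then below 0 for 6 members and for 46.5% of all genes tested, whereas with DSS-1 included it was below 0 for all 10 and for 48.6% of all genes tested. Without ceAF-1, 3 members had a nominal p below 0.05, against 11.2% of all genes tested in either direction. With voom and quality weights, which give less weight to more variable libraries, the log2 fold changes of *Il1a*, *Il1b*, *Il1r2* and *Il33* were −0.63, −1.29, −0.70 and −0.33. The percentage of counts on mitochondrial genes was 9.66% in ceAF-1 and 9.74% in ceAF-5, and ranged from 4.53% to 7.24% in the other 8 mice. The part of these library properties in the levels was not tested.

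**Figure D1:**
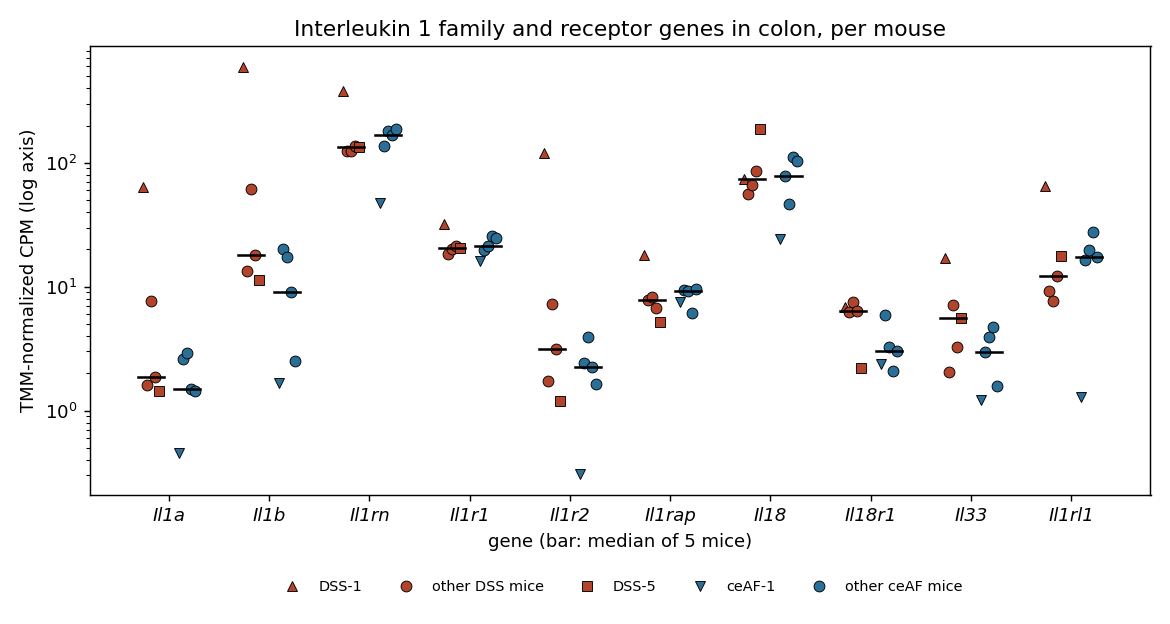
TMM-scaled CPM (log axis) of the 10 IL-1 family and receptor genes in each mouse, with DSS mice in red, ceAF mice in blue and a bar at the median of each group of 5. DSS-1 (upward triangle) is set far above the other DSS mice in *Il1a*, *Il1b* and *Il1r2*, and ceAF-1 (downward triangle) is the lowest mouse in 8 of the 10 genes.

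*Il1b*, which encodes the secreted IL-1β, was the member with the largest fold change. This gene (ENSMUSG00000027398) is listed on the minus strand of chromosome 2 from 129206490 to 129213059, in a build that the table does not name. Its level was 597 CPM in DSS-1, 13.3 in DSS-2, 61.1 in DSS-3, 18.1 in DSS-4 and 11.4 in DSS-5. In the ceAF group it was 1.68 CPM in ceAF-1, 20 in ceAF-2, 17.4 in ceAF-3, 9.01 in ceAF-4 and 2.53 in ceAF-5. DSS-1 was 9.77 times the next mouse, DSS-3. The mice ceAF-2 and ceAF-3 lay within the DSS range, and the other 3 ceAF mice lay below all DSS mice. The group means were 140.1 ± 256 CPM in DSS and 10.1 ± 8.37 CPM in ceAF (SD, n = 5). The log2 fold change, ceAF minus DSS, was −3.79 (standard error 1.25), with a nominal p of 0.0112 and an adjusted p of 0.656 in edgeR's quasi-likelihood test. The exact two-sided permutation test of the mean log2 CPM, which assumes no count model, gave p = 0.0952, where the smallest value that the 252 assignments of 5 of the 10 mice allow is 0.00794. Without DSS-1 the DSS mean was 26.0 ± 23.6 CPM (SD) over the remaining mice, and the log2 fold change was −1.35 (standard error 0.737), with a nominal p of 0.0955 in edgeR. In bulk tissue such as this, fewer cells of a type and less RNA per cell cannot be told apart.

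*Il1a*, the gene of the second IL-1 agonist, which is active already as a precursor and acts as an alarmin, is the neighbour of *Il1b* on the same strand of chromosome 2. It is listed from 129141530 to 129151892 (ENSMUSG00000027399), with 54597 bases between the pair. *Il1a* stood at 63.8 CPM in DSS-1, 1.60 in DSS-2, 7.60 in DSS-3, 1.86 in DSS-4 and 1.44 in DSS-5. Among ceAF mice it stood at 0.458 CPM in ceAF-1, 2.60 in ceAF-2, 2.91 in ceAF-3, 1.49 in ceAF-4 and 1.43 in ceAF-5. The groups overlapped, with 3 of the 5 ceAF mice inside the DSS range, and DSS-1 alone held 83.6% of the summed CPM of the DSS group. With all 10 mice, the log2 fold change was −3.08 (standard error 1.10), with a nominal p of 0.0175 and an adjusted p of 0.656 in edgeR, and the exact permutation p was 0.214. Without DSS-1 it was −0.80, with a nominal p of 0.218 in edgeR. DSS-3 was the next highest mouse for both IL-1 ligands.

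*Il1rn* encodes the IL-1 receptor antagonist and lies elsewhere on chromosome 2, on the plus strand from 24226865 to 24241506 (ENSMUSG00000026981). Its level was 378 CPM in DSS-1 and 124, 124, 138 and 135 CPM in DSS-2 to DSS-5. The ceAF mice had 47.0 CPM in ceAF-1 and 138, 182, 168 and 186 CPM in ceAF-2 to ceAF-5. Apart from DSS-1 and ceAF-1, the DSS mice were close together and each of the ceAF mice was at or above the highest of them. The means were 179.8 ± 111 CPM in DSS and 144 ± 57.5 CPM in ceAF (SD, n = 5), with a log2 fold change of −0.32 (standard error 0.409) and an adjusted p of 0.920 in edgeR. The direction of the mean turned on 1 mouse, since without DSS-1 the log2 fold change was 0.15. When DSS-1 and ceAF-1 were both left out, a setting chosen after the data were seen, it was 0.37, with a nominal p of 0.0111 in edgeR. Since that pair was left out for its levels in these same genes, this p is a description only.

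*Il1r1*, the signaling receptor for both IL-1 ligands, varied least of the members among the DSS mice. It is listed on the plus strand of chromosome 1 from 40264240 to 40356417 (ENSMUSG00000026072). Levels were 32.0, 18.5, 20.2, 21.5 and 20.7 CPM in DSS-1 to DSS-5 and 16.0, 19.9, 21.3, 25.7 and 25.0 CPM in ceAF-1 to ceAF-5. The highest mouse was 1.73 times the lowest in the DSS group and 1.60 times in the ceAF group, and 4 of the 5 ceAF mice lay within the DSS range. The log2 fold change was −0.06 (standard error 0.177), with an adjusted p of 0.972 in edgeR and an exact permutation p of 0.778.

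The decoy receptor gene *Il1r2*, 99848 bases before *Il1r1* on the same strand (ENSMUSG00000026073, 40113239 to 40164391), behaved like the IL-1 ligands instead. It reached 121 CPM in DSS-1, against 1.75 in DSS-2, 7.30 in DSS-3, 3.14 in DSS-4 and 1.20 in DSS-5. The ceAF mice had 0.305, 2.41, 3.89, 2.27 and 1.65 CPM in ceAF-1 to ceAF-5. DSS-1 was 16.5 times the next mouse, the largest such gap of the 10 members, and held 90% of the summed CPM of its group. The other DSS mice and 4 of the 5 ceAF mice shared one range. Its log2 fold change was −3.65 (standard error 1.29), with a nominal p of 0.0162 and an adjusted p of 0.656 in edgeR, and the exact permutation p was 0.230. Without DSS-1 the log2 fold change was −0.65, with a nominal p of 0.333 in edgeR.

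*Il1rap* encodes the accessory chain that completes the receptors for IL-1 and IL-33 (ENSMUSG00000022514, plus strand of chromosome 16, 26400454 to 26548867). Its levels ran from 5.22 CPM in DSS-5 to 18.1 CPM in DSS-1, with a median of 7.85 CPM in DSS and 9.16 CPM in ceAF. All 5 ceAF mice lay within the DSS range, and the log2 fold change was −0.14 with an adjusted p of 0.959 in edgeR. Without DSS-1 it was 0.26.

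*Il18*, the gene of a cytokine that is stored as a precursor in the epithelium, did not follow the IL-1 ligands. It is listed on the plus strand of chromosome 9 from 50466127 to 50493140 (ENSMUSG00000039217). Levels were 74.2, 55.5, 66.0, 85.2 and 189 CPM in DSS-1 to DSS-5, and 24.2, 78.0, 46.4, 112 and 103 CPM in ceAF-1 to ceAF-5. DSS-5, not DSS-1, was the highest mouse, and 3 of the 5 ceAF mice lay within the DSS range. The log2 fold change was −0.37 (standard error 0.434), with an adjusted p of 0.914 in edgeR and an exact permutation p of 0.452, and without DSS-5 it was 0.07.

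*Il18r1*, the ligand-binding chain of the IL-18 receptor, gave a small fold change that did not rest on DSS-1. The gene starts 136 bases after the end of *Il1rl1* on the same strand of chromosome 1 (ENSMUSG00000026070, 40504712 to 40540014). It was at 6.90, 6.30, 7.54 and 6.40 CPM in DSS-1 to DSS-4 and at 2.22 CPM in DSS-5. The ceAF mice had 2.37, 5.86, 3.24, 2.09 and 3.02 CPM in ceAF-1 to ceAF-5. DSS-5 thus lay with the lower ceAF mice, and the other 4 DSS mice lay above all 5 ceAF mice. The share of all genes tested with such an order was not determined. Against DSS, the log2 fold change was −0.82 (standard error 0.363), with a nominal p of 0.0441 and an adjusted p of 0.711 in edgeR, and the exact permutation p was 0.103. It was −0.76 without DSS-1 and −1.02 without DSS-5, with nominal p of 0.0795 and 0.00506 in edgeR. Over all fits without 1 mouse, the nominal p in edgeR ranged from 0.00506 to 0.0979. Only the fits without DSS-5 and without ceAF-2 were below 0.05. How the authors' counting treated reads between *Il1rl1* and *Il18r1* is not given in the sources used here.

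*Il33*, the alarmin gene of this family (ENSMUSG00000024810, plus strand of chromosome 19, 29902514 to 29938118), was also highest in DSS-1. Its level was 16.9 CPM in DSS-1, 2.05 in DSS-2, 7.06 in DSS-3, 3.27 in DSS-4 and 5.64 in DSS-5. Among the ceAF mice it was 1.22 CPM in ceAF-1, 2.99 in ceAF-2, 3.89 in ceAF-3, 4.71 in ceAF-4 and 1.59 in ceAF-5. DSS-1 and DSS-3 lay highest, and 3 of the 5 ceAF mice were within the DSS range. The log2 fold change was −1.27 (standard error 0.562), with a nominal p of 0.045 and an adjusted p of 0.714 in edgeR, and the exact permutation p was 0.127. Without DSS-1 it was −0.63, with a nominal p of 0.200 in edgeR.

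*Il1rl1* encodes ST2, the receptor for IL-33, in a membrane form and in a soluble form that acts as a decoy; counts per gene do not separate these forms. It lies on the plus strand of chromosome 1 from 40468730 to 40504575 (ENSMUSG00000026069). Levels were 64.5, 9.19, 7.66, 12.2 and 17.8 CPM in DSS-1 to DSS-5, and 1.30, 16.5, 19.9, 27.6 and 17.3 CPM in ceAF-1 to ceAF-5. DSS-1 and ceAF-1 held the extremes, and among the other mice the ceAF values lay in the upper part of the DSS range or above it. With all 10 mice, the log2 fold change was −0.43 (standard error 0.715), with an adjusted p of 0.945 in edgeR. It was 0.50 without DSS-1, and 0.79 with a nominal p of 0.0168 in edgeR without DSS-1 and ceAF-1 together, again a setting chosen after the data were seen.

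**Figure D2:**
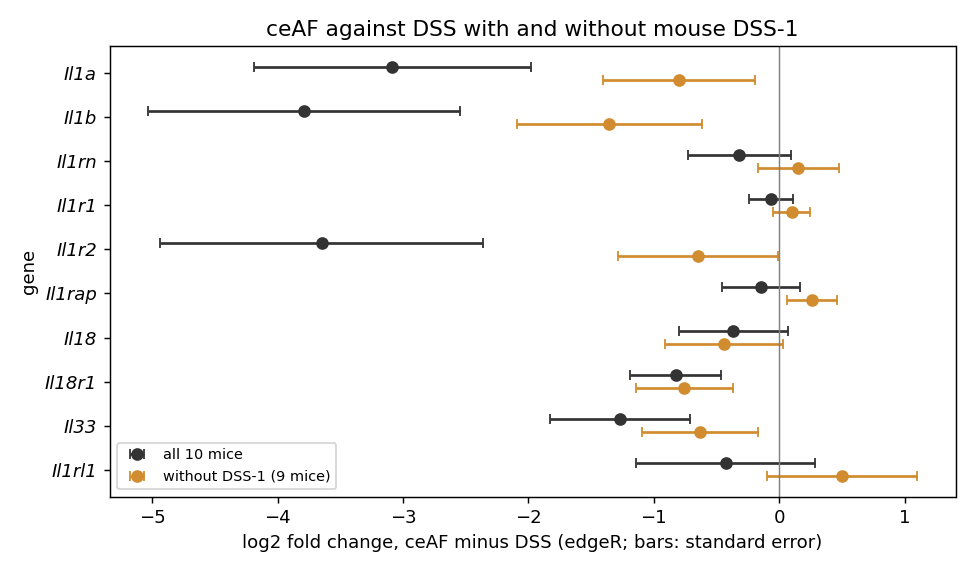
Log2 fold change, ceAF minus DSS, of each member from edgeR with all 10 mice (dark) and without DSS-1 (orange), with bars of 1 standard error. Without DSS-1 the values of *Il1a*, *Il1b* and *Il1r2* move from −3.08, −3.79 and −3.65 to −0.80, −1.35 and −0.65, and those of *Il1rn*, *Il1r1*, *Il1rap* and *Il1rl1* move above 0.

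Levels of different genes were compared by FPKM, the deposited value scaled by exonic length and by library total. By the median FPKM of the 10 mice the order was *Il18* (74.8), *Il1rn* (24.6), *Il1b* (7.92), *Il1r1* (3.25), *Il1rl1* (2.50), *Il1r2* (1.25), *Il33* (1.20), *Il18r1* (0.935), *Il1a* (0.855) and *Il1rap* (0.715). *Il18* was above *Il1rn* in FPKM in 10 of the 10 mice, and *Il1rn* was above *Il1b* in 8. The lower end of the order was not separated, since *Il33* exceeded *Il18r1* in FPKM in 5 mice and *Il18r1* exceeded *Il1a* in 3. It also differed between the groups. By the DSS medians *Il33* (1.98) stood above *Il1rl1* (1.69) and *Il1r2* (1.57), and by the ceAF medians *Il18r1* (0.65) was last. In DSS-1 the FPKM order was different, with *Il1b* at 325, *Il18* at 74.8, *Il1rn* at 71.0 and *Il1r2* at 65.6.

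Ratios of FPKM within a mouse set each antagonist or decoy against its partner, as a description without a test. The FPKM ratio of *Il1rn* to *Il1b* was 0.218 in DSS-1, 3.22 in DSS-2, 0.701 in DSS-3, 2.61 in DSS-4 and 4.07 in DSS-5. In the ceAF group the same ratio was 9.59, 2.37, 3.60, 6.42 and 25.4 in ceAF-1 to ceAF-5. Transcripts of the antagonist therefore exceeded those of IL-1β in all 5 ceAF mice and in 3 of the 5 DSS mice, with DSS-1 and DSS-3 on the other side. The mean log2 ratio was 0.48 ± 1.79 in DSS and 2.74 ± 1.32 in ceAF (SD, n = 5).

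The FPKM ratio of the decoy *Il1r2* to the signaling receptor *Il1r1* was 12.5 in DSS-1, 1.21 in DSS-3 and 0.194 to 0.489 among DSS-2, DSS-4 and DSS-5. In the ceAF mice this ratio lay between 0.0622 in ceAF-1 and 0.609 in ceAF-3, so the decoy exceeded the receptor only in DSS-1 and DSS-3. For *Il18bp*, the gene of the secreted IL-18 binding protein, the FPKM ratio to *Il18* ranged from 0.0522 to 0.329 in DSS and from 0.0324 to 1.03 in ceAF. *Il1rl1* exceeded *Il33* in FPKM in all mice except DSS-3 and ceAF-1, where the ratios were 0.454 and 0.447.

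Likeness between genes was measured by Pearson's r of log2 CPM over the 10 mice, among tested genes with a symbol, and is given as a description. For *Il1b* the most alike genes were *Acod1* (r = 0.982), *Clec4e* (0.979) and *Cxcl2* (0.976), which are known from activated myeloid cells. *Il1a* was most like the member *Il1r2* (r = 0.985), then *Plek* (0.983) and *Lilrb4a* (0.983). For *Il1r2* they were *Lilrb4a* (r = 0.986), *Il1a* (0.985) and *Csf2rb* (0.984). Over the 9 mice other than DSS-1, r was 0.946 for *Il1a* and *Il1r2* and 0.956 for *Il1b* and *Acod1*, while *Fcgr1* was then the gene most like *Il1b* (0.958).

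The remaining members had other partners over the 10 mice. *Il18r1* was most like *Cd247* (r = 0.966), *Icos* (0.961) and *Fyn* (0.960), whose proteins act in T-cell signaling. *Il33* was most like *Arhgap23* (r = 0.967), *Timp1* (0.965) and *Cxcl3* (0.961). *Il1rn* was most like *Nt5dc2* (r = 0.982), *P2ry13* (0.962) and *Gspt2* (0.962), and *Il1rl1* was most like *Lmf2* (0.966), *Nrg1* (0.962) and the member *Il1rn* (0.962). *Il18* was most like *Traf3ip1* (r = 0.939), *Nudt5* (0.936) and *Gm29791* (0.933). The lists for *Il1r1* (*Atp6v0a1*, *Slc7a11* and *Rnf144a*) and *Il1rap* (*Haao*, *Kif5c* and *Dennd4a*) had r between 0.932 and 0.968. Without DSS-1 the 3 most alike genes were others for *Il1rap* (*Ank3*, *Ppp1r26* and *Trim30e-ps1*) and for *Il1rl1* (*Cdr2l*, *Muc1* and *Trim46*). For *Il1rap*, r with *Haao*, *Kif5c* and *Dennd4a* was then 0.916, 0.865 and 0.7998, and for *Il1r1*, r with *Slc7a11* and *Rnf144a* was 0.861 and 0.871.

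The other ligands and receptors of the family were largely at the edge of detection. Of 11 such genes 5 were tested, and 1 had a nominal p below 0.05 in edgeR, against 6.93% of all genes tested in either direction. That gene was *Il18rap*, the second chain of the IL-18 receptor, with 33.1, 9.24, 12.6, 12.5 and 3.42 CPM in DSS-1 to DSS-5 and 2.52, 7.48, 5.21, 5.31 and 5.0 CPM in ceAF-1 to ceAF-5. As with *Il18r1*, DSS-5 was the low mouse of its group, and 4 DSS mice lay above all 5 ceAF mice, an order whose share over all genes was not determined. The log2 fold change of *Il18rap* was −1.47 (standard error 0.501), with an adjusted p of 0.656 in edgeR, and it was −0.88 without DSS-1, with a nominal p of 0.0452 in edgeR. *Il36b* had the next largest fold change, 0.28, on 0 to 3.28 CPM. *Il36g*, the gene of the epithelial cytokine IL-36γ, was not tested because few libraries held enough reads, yet it had 34.3 CPM in DSS-1 and 6.05 in DSS-3 and at most 1.19 CPM in the other 8 mice. *Il36a* and *Il1rapl1* had 21 and 12 counts in all mice together, and *Il36rn*, *Il1f10* and *Il1rapl2* had 0.

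Genes that carry the receptor signal differed little. All 21 were tested, and 9 were lower and 12 higher in mean, against 48.6% of all genes tested lower. The median log2 fold change of the 21 was 0.02, where that of all genes tested was 0.01. *Rela*, which encodes the p65 subunit of NF-κB, was the 1 gene with a nominal p below 0.05, against 6.93% of all genes tested in either direction. It had a log2 fold change of −0.32 (standard error 0.116) and an adjusted p of 0.656 in edgeR. The largest fold changes in this list were those of *Irak3* (−0.53), which encodes an inhibitory IRAK, and *Nfkbia* (−0.42), which encodes the NF-κB inhibitor IκBα, and without DSS-1 they were −0.080 and −0.12, with *Rela* at −0.26 and a nominal p of 0.0501 in edgeR.

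The precursors of IL-1β and IL-18 are cut by caspase-1 in inflammasomes, and 9 of 12 genes for this processing were tested. *Nlrp3*, which encodes an inflammasome sensor, followed *Il1b*, with 44.2, 2.05, 4.73, 1.02 and 0.960 CPM in DSS-1 to DSS-5 and between 0.305 and 1.54 CPM in the ceAF mice. Its log2 fold change was −3.48 (standard error 1.11), with a nominal p of 0.00957 and an adjusted p of 0.656 in edgeR. Without DSS-1 it was −1.21, with a nominal p of 0.0619 in edgeR. *Aim2*, a sensor of DNA, went the other way, with 97.8 to 111 CPM in DSS and 114 to 130.1 CPM in ceAF. Every ceAF mouse was above every DSS mouse in *Aim2*, as in 0.774% of all genes tested, with a log2 fold change of 0.24 (standard error 0.0794) and an adjusted p of 0.656 in edgeR. The sensor gene *Nlrc4* had a log2 fold change of 0.27 and *Casp1*, with 183 to 372 CPM, one of 0.19. The median of the list was 0.15, and the neutrophil protease genes *Elane*, *Prtn3* and *Ctsg* had 0, 30 and 1 counts in all mice together.

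Among 16 genes known to respond to IL-1, 13 were tested, and the median log2 fold change was −1.08. It was below 0 for 12 of the 13, against 48.6% of all genes tested. The neutrophil chemokine gene *Cxcl2* was at 501 CPM in DSS-1 and 4.0, 33.8, 6.15 and 11.5 CPM in DSS-2 to DSS-5, and at 0.660 to 9.31 CPM in the ceAF mice. The log2 fold changes of *Cxcl2*, *Lcn2* and *Ptgs2* were −4.49, −2.73 and −2.34, with nominal p of 0.00950, 0.0284 and 0.0274 in edgeR, and without DSS-1 they were −1.49, −0.56 and −0.56. These 3 of the 13 had a nominal p below 0.05 with all mice, against 3.67% of all genes tested on that side. Without DSS-1, 12 of the 13 were lower and 1 higher, against 46.5% of all genes tested lower, and the median was −0.45. Of the 13, 0 then had a nominal p below 0.05, against 4.26% of all genes tested in either direction. With voom and quality weights 8 were lower and 5 higher, with a median of −0.10, and without DSS-1 and DSS-5 together 7 were lower and 6 higher, with a median of −0.075. Of all genes tested, 50.9% and 44.1% were lower in these fits. DSS-1 was the highest mouse in 9 of the 13 and ceAF-1 the lowest in 10, much as among the members, against 16.0% and 21% of all genes tested. *Il6*, *Csf3* and *Csf2* were not tested.

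Markers of neutrophils, cells that carry much *Il1r2*, were highest in sum in DSS-1 and lowest in ceAF-1, as were the IL-1 ligands. Of 12 such markers 11 were tested, and all 11 had a lower mean in the ceAF group. In edgeR 9 had a nominal p below 0.05, against 3.67% of all genes tested on that side. Without DSS-1 it was 2, against 4.26% in either direction. With voom and with the replicate number as a block it was 0, against 14.8% and 4.19% in either direction. The 3.67% and 4.26% apply also to the counts of the marker lists below. For counts of lower means, here and below, the share of all genes tested was 48.6%, and 46.5% without DSS-1. The summed level of the neutrophil markers was 2311, 133, 351, 210.3 and 561 CPM in DSS-1 to DSS-5 and 23.0, 261, 194, 146 and 216 CPM in ceAF-1 to ceAF-5. *Ly6g* was the most abundant of them and was alone in having its highest level, 482 CPM, in DSS-5. Without *Ly6g*, a choice made after the data were seen, the sums were 2083, 23.0, 222, 26.1 and 79.2 CPM in DSS-1 to DSS-5 and 3.66, 24.2, 21.7, 53.8 and 21.6 CPM in ceAF-1 to ceAF-5. The second highest sum was thus that of DSS-5 over the full list and that of DSS-3 without *Ly6g*, and DSS-3 was also second for *Il1a*, *Il1b* and *Il1r2*. Single markers differed, as *Mmp9* was second highest in ceAF-4 (6.38 CPM, against 3.71 CPM in DSS-3). The part of neutrophil content in the members' levels was not tested.

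Monocyte and macrophage markers, taken as a sum, differed less between mice than *Il1b* did, although a sum and a single gene are unlike measures. All 12 had a lower mean in the ceAF group, 3 with a nominal p below 0.05 in edgeR and 0 without DSS-1. Their summed level was 485, 281, 314, 282 and 215 CPM in DSS-1 to DSS-5 and 83.5, 244, 283, 177 and 266 CPM in ceAF-1 to ceAF-5. The most abundant, *Lyz2*, ran from 24.0 CPM in ceAF-1 to 242 CPM in DSS-1. The part of these cells in the level of *Il1b* or *Il1rn* was not tested.

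T-cell markers were low in DSS-5 among the DSS mice, as was *Il18r1*. All 12 had a lower mean in the ceAF group with a nominal p below 0.05 in edgeR, against 3.67% of all genes tested on that side. Without DSS-1 it was 11 of them, against 4.26% in either direction. After adjustment 0 of the 12 passed in edgeR, as did 0% of all genes tested, whereas DESeq2 called 5, against 0.0956% of its genes. Without DSS-5 edgeR called 1, where it called 0.0179% of all genes tested. The sums were 155, 170.1, 168, 178 and 68.3 CPM in DSS-1 to DSS-5 and 62.9, 81.3, 69.0, 40.2 and 46.0 CPM in ceAF-1 to ceAF-5, and *Cd8a* was the most abundant. Markers of Th1, NK and cytotoxic cells, which carry the IL-18 receptor, summed to 84.0, 169.9, 171, 171 and 55.7 CPM in DSS-1 to DSS-5 and 84.7, 109, 59.0, 34.8 and 45.5 CPM in ceAF-1 to ceAF-5, with *Gzmb* the most abundant. Of these 12, 11 were tested and 4 had a nominal p below 0.05 in edgeR, all lower in ceAF, and 6 without DSS-1, while DESeq2 called 1 at an adjusted p, as did edgeR without DSS-5, and *Ncr1* was not tested. The part of lymphocyte content in *Il18r1* was not tested.

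Epithelial markers, which check the labelled tissue, were abundant in every mouse, with sums between 16986 CPM in DSS-5 and 30754 CPM in ceAF-1. *Car1* differed most between these mice, at 115 CPM in DSS-5 and 11922 CPM in ceAF-1. The part of epithelial content in *Il18* was not tested. Fibroblast and stromal markers, from cells that can make IL-33, summed to 1171, 581, 578, 543 and 549 CPM in DSS-1 to DSS-5 and 202, 713, 683, 865 and 489 CPM in ceAF-1 to ceAF-5, with *Col3a1* the most abundant. All 10 had a lower mean in the ceAF group, 2 of them at a nominal p below 0.05 in edgeR, *Pdpn* and *Thy1*, and *Thy1* is also in the list of T-cell markers. Without DSS-1, 5 of the 10 were lower, and the median log2 fold change went from −0.37 to −0.13. The 1 marker then at a nominal p below 0.05 in edgeR was *Thy1*, while *Pdpn* had a nominal p of 0.0791. DESeq2 called 1 of the 10 at an adjusted p, against 0.0956% of its genes. DSS-1 was the highest and ceAF-1 the lowest mouse here and in *Il33*, and the part of stromal content in *Il33* was not tested. Mast-cell markers, relevant because mast cells carry ST2, were mostly near 0, and only 3 of 10 were tested. *Cpa3*, *Ms4a2* and *Tpsb2* had 51, 32 and 28 counts in all mice together, and the sums, mostly of *Kit*, lay between 32.1 and 56.3 CPM. *Mcpt1*, a mast-cell protease gene, ranged from 1.22 to 9.90 CPM and *Cma1*, the gene of another, from 0 to 5.08 CPM. The part of mast-cell content in *Il1rl1* was not tested.

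Because *Il1a*, *Il1b* and *Il1r2* moved together across mice, the sequences before their starts are shown, from RefSeq on GRCm38.p6. RefSeq windows were found for all 10 members, 17 in number, and the 250 bases before each start were searched on both strands for TATAAA, for TGANTCA, the letters bound by AP-1, and for the κB consensus by name. TATAAA occurred in 5 of the 17 windows, from *Il1a*, *Il1b*, *Il18* and *Il33*, and in 12.4% of all 32851 windows. Read on the gene's own strand within the bases 40 to 21 before the start, where a TATA box usually lies, it occurred in 3 member windows, from *Il1a*, *Il1b* and *Il33*, and in 1.87% of all windows. TGANTCA occurred before *Il1a* and *Il1rn* and in 6.75% of all windows, and the κB consensus before *Il1r1* and in 7.25%. The 100 bases before each start are given 5′ to 3′ on the gene's strand, with TATAAA and TGANTCA in capitals, at chr2:129309973-129310072 (minus strand) for *Il1a*, chr2:129371140-129371239 (minus strand) for *Il1b* and chr1:40085993-40086092 (plus strand) for *Il1r2*.
Il1a: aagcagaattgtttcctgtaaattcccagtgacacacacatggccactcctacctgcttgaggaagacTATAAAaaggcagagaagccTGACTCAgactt
Il1b: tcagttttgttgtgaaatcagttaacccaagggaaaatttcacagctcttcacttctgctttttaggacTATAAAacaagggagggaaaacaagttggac
Il1r2: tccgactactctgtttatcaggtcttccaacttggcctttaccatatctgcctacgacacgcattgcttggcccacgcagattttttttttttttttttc
TATAAA begins 32 bases before the start of *Il1a* and 31 bases before that of *Il1b*, and TGACTCA begins 12 bases before the start of *Il1a*. The window of *Il1r2* holds neither set of letters. A match is a description of the sequence, not evidence of binding.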

How the data were processed

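The authors deposited 1 table holding, for each gene and mouse, a raw whole-number count and an FPKM. The deposited FPKM equals the count scaled by the deposited exonic length (in bases, another column) and the library total within 0.006 for 100% of values, so both come from 1 counting. The submitters' processing notes name cutadapt 1.9.1 and HISAT2 2.2.1; the counting program, genome build and annotation are not given in the sources used here. Groups were taken from the sample labels.

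Genes were kept by filterByExpr (minimum count 10), scaled by TMM and compared with edgeR 4.0.16 in R 4.3.3. Limma 3.58.1 and DESeq2 1.42.0 served as alternatives, and plots were made in Python 3.11.15 (matplotlib 3.10.9). The log2 CPM used a prior count of 1. The fits were tested on simulated data. Standard errors were derived from the F statistic. Alternatives were other scalings, count models, filters, FPKM-based fits, the replicate number as a block and fits without single mice.

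Named were all members, in each other pathway list every gene at a nominal p under 0.05, the pair with the largest fold changes and untested family genes, and for likeness the 3 genes with the highest r. *Il6*, *Csf3*, *Csf2*, *Prtn3*, *Elane*, *Ctsg*, *Casp1* and marker genes named outside this rule were chosen after their values were seen. The members and lists were chosen with earlier results of these data known. A count of 4 in 1 library, the lowest of any member, carries large counting error.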

Additional observations from a re-analysis of the deposited data

Results flagged for a closer look

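Dixon's test for a mouse far from the rest of its group was applied to the log2 CPM of each member in each group of 5, and 5 of the 20 groups passed its critical value, which chance does in about 1 in 20 groups. By group these were 3 of the 10 members in DSS and 2 of the 10 in ceAF, against 8.84% and 7.42% of all genes tested, and the members are not independent of each other. The value given is the mouse's distance to the next one as a fraction of the group's whole range. For *Il1rn* both groups had such a mouse, DSS-1 at the top (0.908 of the range) and ceAF-1 at the bottom (0.779). DSS-1 was also set apart at the top for *Il1r1* (0.733), and ceAF-1 at the bottom for *Il1rl1* (0.830). DSS-5 was set apart at the bottom for *Il18r1* (0.851). *Il1b*, *Il1a* and *Il1r2* were not among them although DSS-1 was far higher in CPM, because DSS-3 also lay well above the other DSS mice on the log2 scale. The cause was not tested for any of these mice.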

How the results depend on the processing

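Of 208 fold changes of members under the alternatives, 188 kept their direction, 20 reversed and 0 passed an adjusted p-value under 0.05. No member was called under any alternative run. DESeq2 called 31 genes, and fits without 1 mouse called 0 to 3, the 3 without DSS-5; the other alternatives called 0. Genes at a nominal p below 0.05 numbered 1146 in edgeR, 2452 with voom and quality weights, 1733 without a filter on low counts, and 712 (without DSS-1) to 1872 (without ceAF-1) when 1 mouse was left out. Members at a nominal p below 0.05 numbered 5 in edgeR, 3 with DESeq2, 1 with voom, 1 with limma-trend on log2(FPKM + 1), 1 on log2(FPKM + 0.1), 1 without DSS-1 and DSS-5, 2 without DSS-1 and ceAF-1 (chosen after seeing the data) and 0 to 4 when 1 mouse was left out. The shares of all genes in either direction were 6.93% in edgeR, 4.84% with DESeq2, 14.8% with voom, 6.10% and 5.98% with limma-trend on log2(FPKM + 1) and on log2(FPKM + 0.1), 5.25% without DSS-1 and DSS-5, 8.76% without DSS-1 and ceAF-1, and 4.26% to 11.2% when 1 mouse was left out. The cause was not tested.

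With the replicate number as a replicate block, 694 genes (4.19%) and 0 members had a nominal p below 0.05, and *Il1rl1* reversed to 0.093, while *Il1a*, *Il1b*, *Il1r2* and *Il33* were at −1.15, −1.95, −1.06 and −0.996. The mice share only a number, since deviations of same-numbered mice correlated at −0.25, −0.14, −0.0043, −0.16 and 0.29, and 1 of the 5 correlated best with its own number.

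The other reversals were in *Il1rn*, *Il1r1*, *Il1rl1*, *Il1rap* and *Il18*. With voom they were 0.090 for *Il1rn*, 0.062 for *Il1r1*, 0.56 for *Il1rl1* and 0.11 for *Il1rap*, and the values of *Il1a*, *Il1b*, *Il1r2* and *Il33* were −0.63, −1.29, −0.70 and −0.33. Limma-trend gave −1.12, −2.22, −1.27 and −0.65 for these 4 on log2(FPKM + 1), and −1.53, −2.55, −1.70 and −1.02 on log2(FPKM + 0.1). Without DSS-1 and DSS-5 they were 0.17 for *Il1rn*, 0.12 for *Il1r1*, 0.78 for *Il1rl1*, 0.15 for *Il1rap* and 0.091 for *Il18*. Without DSS-1 and ceAF-1 they were 0.37, 0.18, 0.79 and 0.29 for *Il1rn*, *Il1r1*, *Il1rl1* and *Il1rap*. Leaving out 1 mouse gave −0.43 to 0.15 for *Il1rn*, −0.12 to 0.10 for *Il1r1*, −0.67 to 0.50 for *Il1rl1*, −0.27 to 0.26 for *Il1rap* and −0.57 to 0.071 for *Il18*, and −4.15 to −1.35 for *Il1b*. The exact permutation p-values on log2(FPKM + 0.1) kept their side of 0.05 for 10 of 10 members, and the FPKM ratios changed alike in CPM. The number of mice, 10, limits all of these comparisons, and low counts such as the 4 reads of *Il1r2* in ceAF-1 carry large counting error.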

Other observations

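Further marker lists are given for the cells that can bear these receptors, without a test of the lists. B-cell and plasma-cell markers, of which 8 of 8 were tested, had DSS-1 as the highest mouse in 8 and ceAF-1 as the lowest in 7. The shares of all genes tested were 16.0% and 21%. The sums of these markers were 967 CPM in DSS-1 and 87.2 CPM in ceAF-1, with *Jchain* the most abundant. Their median log2 fold change was −0.49 and became 0.39 without DSS-1, much as *Il1rn* and *Il1rl1* turned. Endothelial markers had ceAF-1 as the lowest mouse in 8 of 8 and a median of −0.39, which was −0.19 without DSS-1, and *Pecam1* was the most abundant. Smooth muscle markers had a median of −0.15 over 8 genes, and −0.096 without DSS-1. Enteric neuron and glia markers had one of −0.17 over 9 genes, which turned to 0.21 without DSS-1, with 0 in either list at a nominal p below 0.05 in edgeR.

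Regulatory T-cell markers had a median log2 fold change of −0.26 over 6 tested of 8, with 5 lower; without DSS-1 it was −0.048, with 3 of the 6 lower. Type 2 lymphoid markers, from cells that carry ST2, had one of 0.01 over 6 of 8, and 0.15 without DSS-1, with *Il13* at 0 counts in every mouse. The 3 mast-cell markers tested had a median of −0.21 (−0.13 for the same 3 without DSS-1, and −0.049 with *Cma1*, which was then tested too), the 12 epithelial markers one of 0.03 and the 5 squamous markers tested of 12 one of 0.12. *Krt5*, *Trp63* and *Krt4*, which define squamous epithelium, had 34, 7 and 4 counts in all mice together.

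In DSS-1 and DSS-3 the untested epithelial ligand *Il36g* was the highest, as were *Il1a*, *Il1b* and *Il1r2*, whereas *Ly6g*, *Il18* and *Ccl20* were highest in DSS-5, with *Ccl20* at 20.5 CPM in DSS-5 and at most 7.42 CPM in the other mice.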
